A study of Homo sapiens with 27 samples.

Results

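The ubiquitin-specific proteases (USPs) were examined in U2OS cells, a human osteosarcoma line, during culture expansion and after depletion of the MMP-2 protease. The members were all gene symbols in the count data that consist of USP, 1 or 2 digits and an optional X. USP18, a gene of the interferon response, the USP17L copies, pseudogenes and antisense genes were left out. This gave 49 genes of 55882 symbols. Of these 49, 45 had enough reads for testing in every comparison, whereas USP26, USP29, USP44 and USP50 had too few in all of them. Poly(A) RNA was sequenced from 3 lines that had been infected with lentivirus and selected with puromycin. The control libraries are titled WT by the submitters, whose treatment text gives these cells an empty pLKO.1 vector, while the MMP2sh1 and MMP2sh2 lines each carried a different shRNA against MMP2. Each line was harvested when subconfluent (day −2), confluent (day 0) and overconfluent (day +2), with 3 libraries per line and day and 27 in all. The lines are stable cultures, so that a difference between an shRNA line and the control can hold differences between the cultures as well as the effect of the shRNA, and these cannot be told apart here.

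USPs are cysteine proteases that remove ubiquitin from substrate proteins or trim ubiquitin chains, and they form the largest family of human deubiquitinases. By removing degradation signals they can stabilize a substrate, and by removing single ubiquitins from histones they act on chromatin. Each member has its own substrates and location: USP5 disassembles unanchored ubiquitin chains, USP14 works on the proteasome, USP22 belongs to the SAGA coactivator complex, USP16 removes ubiquitin from histone H2A, USP7 acts on MDM2, and USP30 sits on the mitochondrial outer membrane. The values below are mRNA levels and say nothing about the amount or activity of the enzymes.

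The libraries held 33580129 to 59374327 reads on genes (median 40075178), of which the 49 members took 3246 to 3832 CPM (counts of a gene scaled to the total of the library). MMP2, the targeted gene, was at 222, 226.3 and 248 CPM in the control libraries of day −2, at 34.0, 39.5 and 46.8 in MMP2sh1 and at 136, 139.9 and 155 in MMP2sh2. Its log2 fold change against the control was −2.53, −2.47 and −2.34 in MMP2sh1 at days −2, 0 and +2, and −0.70, −1.06 and −0.82 in MMP2sh2, and thus larger falls were measured in MMP2sh1 at each day. Of the mesenchymal and osteoblast markers, VIM (678 to 841 CPM), COL1A1 (1005 to 1486 CPM) and RUNX2 (30.0 to 63.7 CPM) were present in every library, whereas COL1A2 was at 0 to 0.683 CPM. The leukocyte marker CD3E had reads in 1 of 27 libraries and PTPRC did not exceed 1.44 CPM, while the epithelial markers EPCAM and CDH1 were at 3.12 to 6.73 CPM and 0 to 2.54 CPM.

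Most USP mRNAs were well expressed in these cells. In subconfluent control cells the median level of the 45 tested members was 54.2 CPM, against 12.1 CPM for all 19099 genes tested in the control expansion. To compare members with one another, CPM was divided by the length of all annotated exons of the gene in kb. On this scale the 5 highest members were USP5 at 85.1 CPM per kb, USP22 at 67.9, USP1, which deubiquitinates FANCD2 and PCNA, at 37.0, USP39, a catalytically inactive splicing factor, at 26.1, and USP10, a partner of the stress granule protein G3BP1, at 24.9. The lowest tested members were USP6 at 0.0389 CPM per kb, USP2 at 0.232, USP45 at 1.30, USP8 at 1.43 and USP43 at 1.46. The length used covers the exons of all annotated transcripts and can exceed that of a single mRNA, so that ranks per kb depend on the annotation. Before the division USP8, with 20641 bases, was at 29.6 CPM and USP43, with 5084 bases, at 7.42 CPM. USP6 had 2 to 70 reads per library and USP2 had 18 to 83, so that changes of these 2 genes were measured with large errors. Among the members tested in no comparison, USP26 had no read in any library. USP29 had 7 reads in all, in 2 of 27 libraries, USP50 had 35 reads in 14 libraries, and USP44, a mitotic checkpoint enzyme, had 92 reads in 20 libraries. USP26 and USP29 are known as genes of the testis and germ line.

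**Figure D1:**
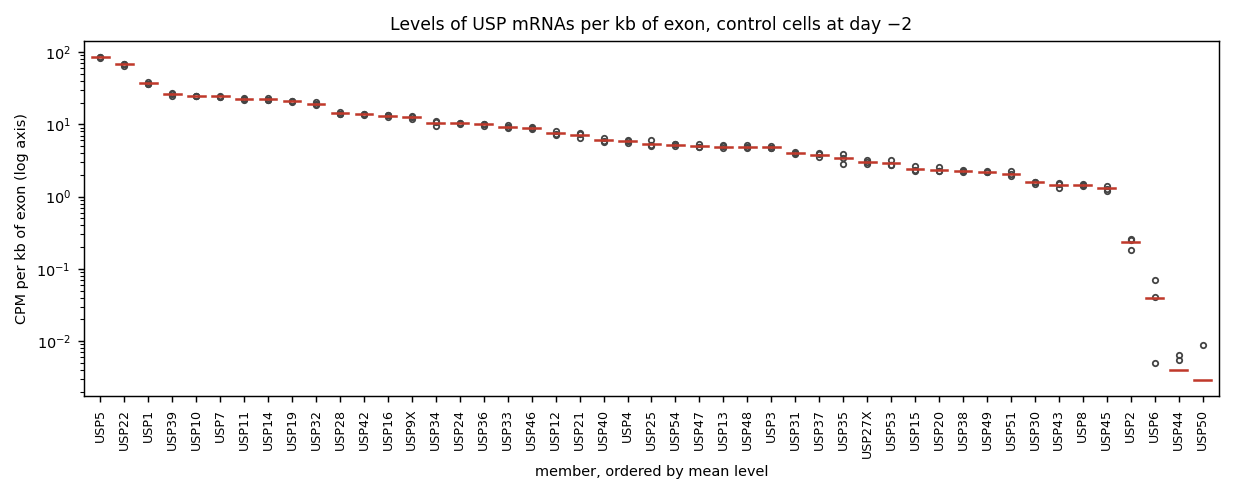
Mean level of each USP mRNA in control cells at day −2 in CPM per kb of exon (red line, log axis), with the 3 libraries as circles; libraries without a read are not drawn. USP5 was highest at 85.1 CPM per kb and USP22 followed at 67.9, and a gap separated USP45 at 1.30 from USP2 at 0.232.

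The expansion of the control line, from day −2 to day +2, changed many of these mRNAs, in both directions. Calls rest on the quasi-likelihood test of edgeR, with p-values adjusted by Benjamini and Hochberg's method over all genes tested, at an adjusted p under 0.05 and with 3 libraries per group. By this rule 12 of 45 members rose, where 28.1% of all genes tested did, and 18 fell, where 28.6% of all genes did. The share of members that rose (26.7%) was close to that of all genes, and the share that fell (40.0%) was above it. The changes were moderate: the median size of the log2 fold change over the 45 members was 0.23, against 0.41 over all genes tested, and 1 called member (USP43) moved by more than 2-fold. Of all genes tested, 22.8% were under 1 CPM in subconfluent control cells, as was 1 of the 45 members. Of genes with under 4 kb, 4 to 8 kb and 8 kb or more of exon, 55.5%, 64.8% and 66.9% were called in either direction, and 66.7% of the members were. The part of level and length in the members' values was not tested.

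**Figure D2:**
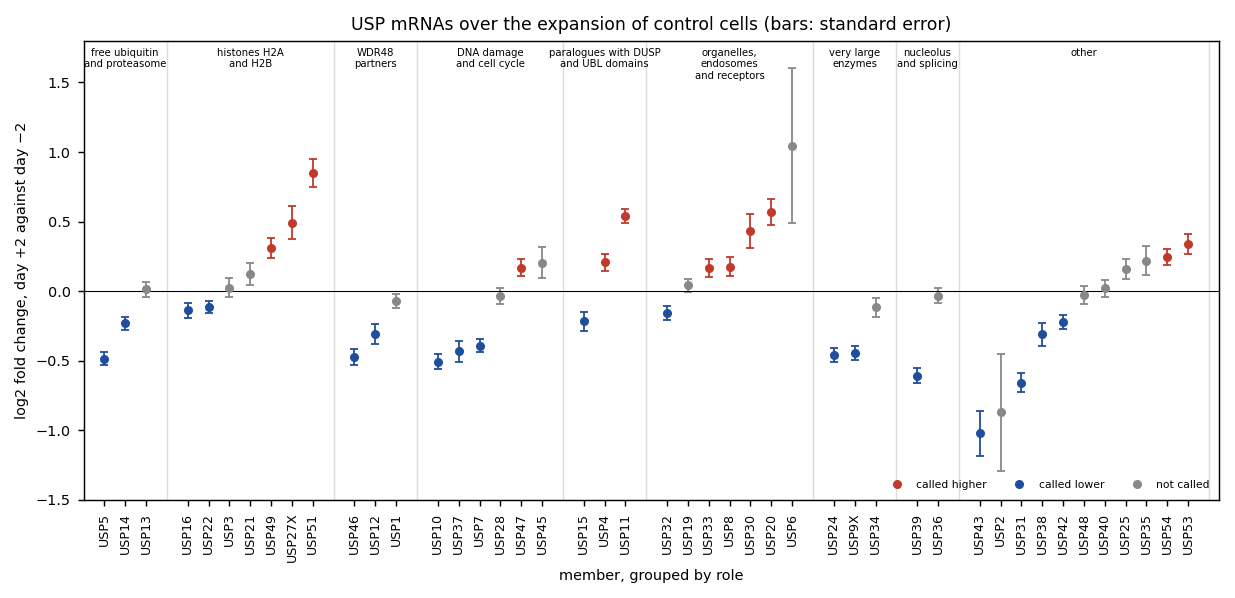
Log2 fold change of the 45 tested USP mRNAs in control cells from day −2 to day +2, grouped by role, with the standard error as bars (red, called higher; blue, called lower; grey, not called). USP51 at 0.85 was the largest called rise and USP43 at −1.02 the largest called fall, and USP6 and USP2 had the widest errors.

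Among the members that act on histones H2A and H2B, USP51, USP27X and USP49 rose and USP16 and USP22 fell. USP51, USP27X and USP22 are close paralogs that share the SAGA adaptors ATXN7L3 and ENY2. USP51 was at 9.47, 8.98 and 10.5 CPM in the 3 control libraries of day −2, 12.1, 11.9 and 12.5 at day 0 and 18.2, 17.6 and 16.0 at day +2. All libraries of day +2 lay above those of day 0, and those above day −2, with a log2 fold change over the expansion of 0.85 (standard error 0.10, edgeR adjusted p = 7.6e-08). USP27X was at 10.0, 9.33 and 8.57 CPM at day −2 and at 14.7, 11.1 and 13.5 at day +2, without overlap, and changed by 0.49 (standard error 0.12, edgeR adjusted p = 0.00084). USP22, far more abundant, went from 472, 441 and 467 CPM to 425, 416 and 432, a change of −0.11 (standard error 0.04, edgeR adjusted p = 0.036). The libraries of day −2 lay above those of day +2, but the call was lost without control library 1 of day −2 (0.14), control library 3 of day −2 (0.062) or control library 2 of day +2 (0.13), with the adjusted p in parentheses. USP49, which deubiquitinates H2B, rose by 0.31 (edgeR adjusted p = 0.00071). The USP51 exons overlap an unnamed gene on the opposite strand, and reads were counted without regard to strand, with those over 2 annotated genes set aside as ambiguous.

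Of the 3 enzymes of free ubiquitin and the proteasome, USP5 and USP14 were called lower and USP13 was not called. USP5 was at 311, 318 and 319.8 CPM at day −2, 266, 266 and 291 at day 0 and 219.7, 229 and 226.2 at day +2, with no overlap between days, and fell by 0.48 (standard error 0.04, edgeR adjusted p = 5.2e-10) on the log2 scale. USP14 changed by −0.23 (edgeR adjusted p = 0.00021), while USP13, a paralog of USP5, was at 0.01 (edgeR adjusted p = 0.84). The 3 partners of WDR48, the activating subunit also known as UAF1, gave −0.47 for USP46 and −0.31 for USP12, both called lower, and −0.07 for USP1, which was not called. WDR48 itself was called higher, at 0.35 (edgeR adjusted p = 1.0e-05).

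In the group of DNA damage and cell cycle, USP7, USP10 and USP37 fell and USP47 rose, while USP28 and USP45 were not called. USP10 was at 127, 126 and 127 CPM at day −2 and 93.1, 87.9 and 85.5 at day +2, with a change of −0.50 (standard error 0.05, edgeR adjusted p = 2.3e-09). USP7 went from 212, 209 and 218 CPM to 172, 157 and 156, a change of −0.39 (edgeR adjusted p = 1.2e-07). Neither gene's groups overlapped. In the same comparison MDM2, a substrate of USP7, changed by −0.54 (edgeR adjusted p = 1.1e-08). The paralogs with DUSP and UBL domains split, with USP11 at 0.54 (edgeR adjusted p = 4.0e-10), USP4 at 0.21 (edgeR adjusted p = 0.005) and USP15 at −0.22 (edgeR adjusted p = 0.0084). USP11, at 111, 113 and 119 CPM at day −2 and 160.1, 165 and 171 at day +2, showed the smallest adjusted p among the rising members.

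Of the 7 members of organelles, endosomes and receptors, 4 were called higher and 1 lower, where 28.1% and 28.6% of all genes were, and USP6 and USP19 were not called. USP20, which deubiquitinates beta-adrenergic receptors among other substrates, was at 14.0, 12.5 and 12.4 CPM at day −2, 13.0, 13.2 and 14.2 at day 0 and 19.5, 19.1 and 19.1 at day +2. The rise came between day 0 and day +2 and amounted to 0.57 (standard error 0.09, edgeR adjusted p = 7.3e-06) over the expansion. USP30, a brake on mitophagy, was at 8.29, 8.19 and 7.75 CPM at day −2 and 10.9, 9.52 and 12.2 CPM at day +2, with 0.43 (edgeR adjusted p = 0.0035). USP33 and USP8 were also called higher (0.16 and 0.18) and USP32 lower (−0.15). The call of USP8, an enzyme of endosomal sorting, was lost without control library 1 of day −2 (0.13), control library 2 of day −2 (0.076), control library 1 of day +2 (0.13) or control library 3 of day +2 (0.085).

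The remaining large falls were those of USP43 (−1.02, edgeR adjusted p = 4.5e-06), USP31 (−0.66, edgeR adjusted p = 1.9e-09), USP39 (−0.61, edgeR adjusted p = 6.5e-10) and USP24 (−0.46, edgeR adjusted p = 2.5e-08). USP43 was a low mRNA, at 7.70, 7.91 and 6.64 CPM at day −2, 5.95, 4.32 and 5.51 at day 0 and 3.26, 4.29 and 3.36 at day +2. USP39 declined from 108, 103 and 98.2 CPM over 87.4, 90.5 and 87.9 to 63.0, 70.8 and 68.7. USP24, one of the very large enzymes, was at 125, 123 and 128 CPM at day −2, 128, 131 and 125 at day 0 and 96.8, 89.0 and 86.6 at day +2, so that its fall came after confluence. USP53, a member found at tight junctions, rose by 0.34 (edgeR adjusted p = 0.00024). For the 7 largest called rises (USP51, USP20, USP11, USP27X, USP30, USP53 and USP49) and the 7 largest called falls (USP43, USP31, USP39, USP10, USP5, USP46 and USP24), the call was kept when any 1 of the 6 libraries was left out.

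The steps before and after confluence differed in direction for a number of members. From day −2 to day 0, 13 members rose, where 16.4% of all genes did, and 11 fell, where 19.1% of all genes did. From day 0 to day +2, 9 rose, where 21.3% of all genes did, and 19 fell, where 20.1% of all genes did. In 6 members, USP1, USP13, USP16, USP28, USP34 and USP48, a called rise was followed by a called fall, and in USP36, a nucleolar enzyme, a called fall was followed by a called rise. Of the 18707 genes tested in both steps, 2.83% had the first of these patterns and 3.44% the second, against 13.3% and 2.22% of the 45 members. USP16 went from 78.0, 75.7 and 72.0 CPM to 92.3, 96.2 and 92.7 and down to 67.4, 68.3 and 68.7, with no overlap between the days. The 2 steps were 0.32 (standard error 0.05, edgeR adjusted p = 1.3e-05) and −0.44 (standard error 0.05, edgeR adjusted p = 4.1e-08). USP36 was at 94.4, 94.9 and 88.3 CPM, 75.9, 75.0 and 78.3 and 92.1, 92.9 and 85.6, so that day 0 lay below both other days. For USP1 the call of the rise was lost without control library 1 of day −2 (0.063), control library 2 of day −2 (0.086) or control library 1 of day 0 (0.057), and for USP34 without control library 2 of day −2 (0.064). A further 8 members, USP5, USP7, USP9X, USP10, USP31, USP39, USP43 and USP46, were called lower in both steps, and USP51 was called higher in both, where 8.63% and 5.88% of all genes were. For USP51 the call of the first step was lost without control library 1 of day −2 (0.051) or control library 2 of day −2 (0.072), and for USP46 without control library 1 of day −2 (0.091), control library 3 of day −2 (0.063), control library 1 of day 0 (0.072) or control library 3 of day 0 (0.058). For USP43 the first step was lost without control library 2 of day −2 (0.053) or control library 2 of day 0 (0.072) and the second without control library 1 of day 0 (0.13), control library 3 of day 0 (0.071), control library 1 of day +2 (0.095) or control library 3 of day +2 (0.086). Another 9 tested members were called in neither step, as were 42.3% of all genes. Both steps share the 3 control libraries of day 0, which enter them with opposite sign.

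The sequences around the start sites of members that rose or fell in the control are shown to let their promoters be read side by side. RefSeq promoter windows, from 250 bases before to 50 bases after the start on GRCh38.p14, were found for 39 of the 49 members (53 windows). The windows are those of USP5 (chr12:6851900-6852199) and USP10 (chr16:84699750-84700049), which fell over the expansion, and of USP11 (chrX:47232759-47233058) and USP20 (chr9:129835208-129835507), which rose, all on the plus strand and written 5′ to 3′. Capitals mark 3 motifs, each searched on both strands: the CCAAT box (CCAAT or ATTGG), the GC box (GGGCGG or CCGCCC) and the ETS motif (CCGGAAGT or ACTTCCGG).
USP5: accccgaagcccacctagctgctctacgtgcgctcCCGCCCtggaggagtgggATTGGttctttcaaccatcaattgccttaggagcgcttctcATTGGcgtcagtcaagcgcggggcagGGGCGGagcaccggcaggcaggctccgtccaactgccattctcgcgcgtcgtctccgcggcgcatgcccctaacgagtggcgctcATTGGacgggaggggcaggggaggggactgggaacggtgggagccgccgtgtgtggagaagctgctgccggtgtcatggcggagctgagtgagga
USP10: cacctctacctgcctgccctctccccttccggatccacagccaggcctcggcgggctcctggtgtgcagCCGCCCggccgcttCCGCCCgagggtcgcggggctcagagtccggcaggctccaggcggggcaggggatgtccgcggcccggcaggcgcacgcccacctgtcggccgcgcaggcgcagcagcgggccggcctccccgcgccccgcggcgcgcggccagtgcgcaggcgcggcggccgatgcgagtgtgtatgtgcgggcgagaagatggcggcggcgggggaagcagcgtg
USP11: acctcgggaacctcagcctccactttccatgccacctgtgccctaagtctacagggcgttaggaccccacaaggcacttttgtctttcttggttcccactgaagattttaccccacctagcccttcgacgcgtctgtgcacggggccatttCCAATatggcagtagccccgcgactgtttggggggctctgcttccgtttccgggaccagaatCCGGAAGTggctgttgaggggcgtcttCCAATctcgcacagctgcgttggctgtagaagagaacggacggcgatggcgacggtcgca
USP20: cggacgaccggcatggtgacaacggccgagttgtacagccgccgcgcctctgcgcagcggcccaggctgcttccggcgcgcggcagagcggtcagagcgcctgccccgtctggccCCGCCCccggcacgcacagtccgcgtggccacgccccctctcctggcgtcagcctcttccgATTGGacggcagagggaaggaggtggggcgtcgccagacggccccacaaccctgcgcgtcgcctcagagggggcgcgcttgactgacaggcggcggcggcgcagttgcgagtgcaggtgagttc

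USP5 has 3 CCAAT boxes and 2 GC boxes in this window, USP10 has 2 GC boxes and no CCAAT box, USP11 has 2 CCAAT boxes, an ETS motif and no GC box, and USP20 has 1 CCAAT box and 1 GC box. Over the 53 windows of members, 71.7% held a GC box, against 45.0% of all 35116 windows, 24.5% held a CCAAT box, against 34.6%, and 9.43% held the ETS motif, against 4.14%. The median GC content was 68.3% in the windows of members and 58.7% in all windows. A CCAAT box was in 8 of the 16 windows of members that rose in the control and in 3 of the 17 windows of members that fell. A GC box was in 9 and in 13 of them, respectively. These are matches of letters and were not tested for a relation to the mRNA levels, and several windows can belong to 1 gene.

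The expansion gave similar numbers of calls in the shRNA lines. In MMP2sh1, from day −2 to day +2, 15 members rose, where 27.3% of all genes did, and 13 fell, where 27.7% of all genes did. In MMP2sh2, 13 rose, where 27.7% of all genes did, and 14 fell, where 27.1% of all genes did. The libraries of the 3 lines are separate, so that these 3 comparisons share none. Of the 45 tested members, 9 were called higher in all 3 lines (20.0%) and 11 lower (24.4%), against 19.4% and 21.6% of the 18164 genes tested in all 3. Of the genes with the largest changes in the control, USP51 rose by 0.74 in MMP2sh1 and 0.64 in MMP2sh2, USP11 by 0.55 and 0.35, and USP20 by 0.84 and 0.37. Likewise USP43 changed by −1.11 and −0.98, USP31 by −0.61 and −0.74, USP39 by −0.66 and −0.66 and USP5 by −0.59 and −0.57, all called. USP30 was not called in either shRNA line, at 0.30 (edgeR adjusted p = 0.059) in MMP2sh1 and 0.20 (edgeR adjusted p = 0.18) in MMP2sh2, and USP49 was not called in MMP2sh2, at 0.19 (edgeR adjusted p = 0.075). The call of USP20 in MMP2sh2 was lost without MMP2sh2 library 1 of day −2 (0.094).

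In 2 of the 45 tested members, USP9X and USP16, calls of opposite sign were found between lines. The share of all genes with such calls was not counted. USP9X, on chromosome X between 40944698 and 41095832 (plus strand) of GRCh37 with an annotated exon length of 14265 bases, encodes a very large enzyme with many substrates, among them MCL1. In the control, USP9X was at 179, 172 and 187 CPM at day −2, 152, 164 and 152 at day 0 and 137, 129 and 127 at day +2. In MMP2sh1 it was at 123, 121 and 127 CPM, 153, 149 and 151, and 131, 149.9 and 155, and in MMP2sh2 at 133, 139 and 126 CPM, 152, 142 and 147, and 139.6, 138 and 141. The control thus declined over the expansion, while the MMP2sh1 libraries of day 0 and day +2 all lay above those of day −2. The change from day −2 to day +2 was −0.45 (standard error 0.05, edgeR adjusted p = 1.9e-08) in the control, 0.23 (standard error 0.07, edgeR adjusted p = 0.0048) in MMP2sh1 and 0.08 (standard error 0.06, edgeR adjusted p = 0.28) in MMP2sh2.

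The lines differed in USP9X chiefly at day −2, where all 6 libraries of the shRNA lines (121 to 139 CPM) lay below the 3 control libraries (172 to 187 CPM). Against the control, the log2 fold change at day −2 was −0.54 (standard error 0.06, edgeR adjusted p = 2.3e-07) in MMP2sh1 and −0.44 (standard error 0.06, edgeR adjusted p = 1.4e-05) in MMP2sh2. It was −0.05 (edgeR adjusted p = 0.49) and −0.10 (edgeR adjusted p = 0.16) at day 0, and 0.15 (edgeR adjusted p = 0.12) and 0.09 (edgeR adjusted p = 0.44) at day +2. The difference in the expansion between line and control, the interaction of line and day, was 0.69 (standard error 0.08, edgeR adjusted p = 2.3e-06) for MMP2sh1 and 0.52 (standard error 0.08, edgeR adjusted p = 2.8e-05) for MMP2sh2. These calls at day −2 and of the interaction were kept when any 1 library was left out and under all other fits. Both lines were set against the same 3 control libraries per day, so that their values are not independent. MMP2sh1 and MMP2sh2 differed from each other in USP9X by −0.10 (edgeR adjusted p = 0.35) at day −2, 0.05 (edgeR adjusted p = 0.45) at day 0 and 0.06 (edgeR adjusted p = 0.67) at day +2.

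USP16, on chromosome 21 between 30396950 and 30426809 (plus strand), was called lower over the expansion in the control (−0.14, edgeR adjusted p = 0.032) and in MMP2sh1 (−0.27, edgeR adjusted p = 0.0059) and higher in MMP2sh2 (0.19, edgeR adjusted p = 0.026). Its peak at day 0 was present in all 3 lines, with 92.3, 96.2 and 92.7 CPM in the control, 94.7, 89.5 and 84.1 in MMP2sh1 and 93.2, 80.2 and 89.9 in MMP2sh2. At day −2 MMP2sh2 was lowest, at 66.5, 59.3 and 60.8 CPM, and at day +2 it was at 66.2, 68.9 and 76.6 CPM against 67.4, 68.3 and 68.7 in the control. The interaction was 0.33 (standard error 0.09, edgeR adjusted p = 0.029) for MMP2sh2 and −0.12 (edgeR adjusted p = 0.55) for MMP2sh1. The call in MMP2sh2 depended on single libraries and was lost without control library 1 of day −2 (0.079), control library 2 of day −2 (0.056), control library 2 of day +2 (0.053), control library 3 of day +2 (0.054), MMP2sh2 library 2 of day −2 (0.077), MMP2sh2 library 3 of day −2 (0.051) or MMP2sh2 library 3 of day +2 (0.097). Likewise the call of the fall in the control was lost without control library 1 of day −2 (0.15), control library 2 of day −2 (0.077), control library 1 of day +2 (0.062), control library 2 of day +2 (0.073) or control library 3 of day +2 (0.054), and that of the rise in MMP2sh2 without MMP2sh2 library 2 of day −2 (0.14), MMP2sh2 library 3 of day −2 (0.084) or MMP2sh2 library 3 of day +2 (0.17). The former was also lost without a filter on low counts, with a filter of 10 counts in every library and in one fit of all 27 libraries.

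**Figure D3:**
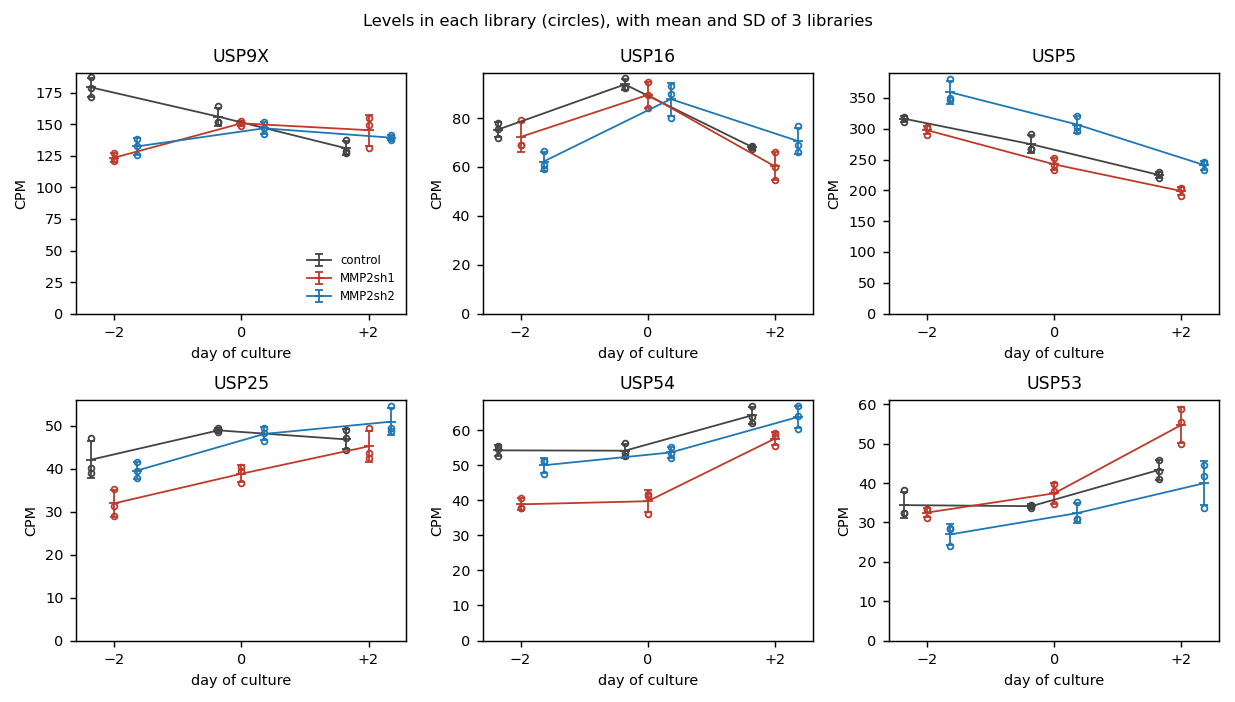
CPM of 6 USP mRNAs by day of culture in control (grey), MMP2sh1 (red) and MMP2sh2 (blue) cells, with each library as a circle and the mean and SD of 3 libraries as line and bars. USP9X fell in the control, rose in MMP2sh1 and was not called in MMP2sh2, USP5 fell in all 3 lines with MMP2sh2 above MMP2sh1 at each day, and USP25 and USP54 were lowest in MMP2sh1 at days −2 and 0.

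The interaction of MMP2sh1 and day was called for 8 of 45 members, where 7.40% of all genes tested were called, and that of MMP2sh2 and day for 2 of 45, where 4.98% of all genes were called. In MMP2sh1, 7 of the 8 had a more positive change than in the control. They were USP9X, USP53 (0.42, edgeR adjusted p = 0.016), USP38 (0.41, edgeR adjusted p = 0.045), USP42 (0.38, edgeR adjusted p = 0.0025), USP40 (0.38, edgeR adjusted p = 0.012), USP34 (0.35, edgeR adjusted p = 0.024) and USP54 (0.32, edgeR adjusted p = 0.023). The call of USP38 was lost with median-of-ratios scaling, with a replicate block and when low counts were not filtered. USP14 had the opposite sign, at −0.29 (edgeR adjusted p = 0.031). USP34, a very large enzyme that acts on axin, was at 198, 174 and 208 CPM at day −2 and 201, 162 and 169.6 at day +2 in the control, against 183, 174 and 170.1 and 191, 210.1 and 217 in MMP2sh1. The control libraries overlapped between these days and those of MMP2sh1 did not. USP42 fell in the control from 96.5, 93.6 and 99.0 to 84.9, 82.9 and 79.0 CPM, while MMP2sh1 went from 86.7, 82.6 and 82.7 to 92.4, 97.1 and 90.8.

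With 1 of the 12 libraries left out, the number of members called in the MMP2sh1 interaction was 2 without control library 3 of day −2, 3 and 4 without control libraries 3 and 2 of day +2, and 5 each without control library 1 of day −2, MMP2sh1 library 3 of day −2 or MMP2sh1 library 3 of day +2. In the MMP2sh2 interaction it was 1 without control libraries 1 or 2 of day −2, control libraries 2 or 3 of day +2, MMP2sh2 libraries 2 or 3 of day −2 or MMP2sh2 library 3 of day +2. USP9X and USP42 kept their call in MMP2sh1 with each library left out, and USP9X did in MMP2sh2. In MMP2sh1 the calls of USP38, USP34, USP14, USP54, USP53 and USP40 were lost in 9, 8, 7, 6, 4 and 1 of these 12 fits. Exon length moved with these results over the whole data set. Among all genes with an annotated length, the median interaction value for MMP2sh1 was −0.07 for genes under 4 kb of exon, 0.01 for 4 to 8 kb and 0.09 for 8 kb or more, and for MMP2sh2 it was −0.06, 0.00 and 0.05. Of the 45 tested members, 21 have 8 kb of exon or more, and the part of length in the members' values was not tested.

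**Figure D4:**
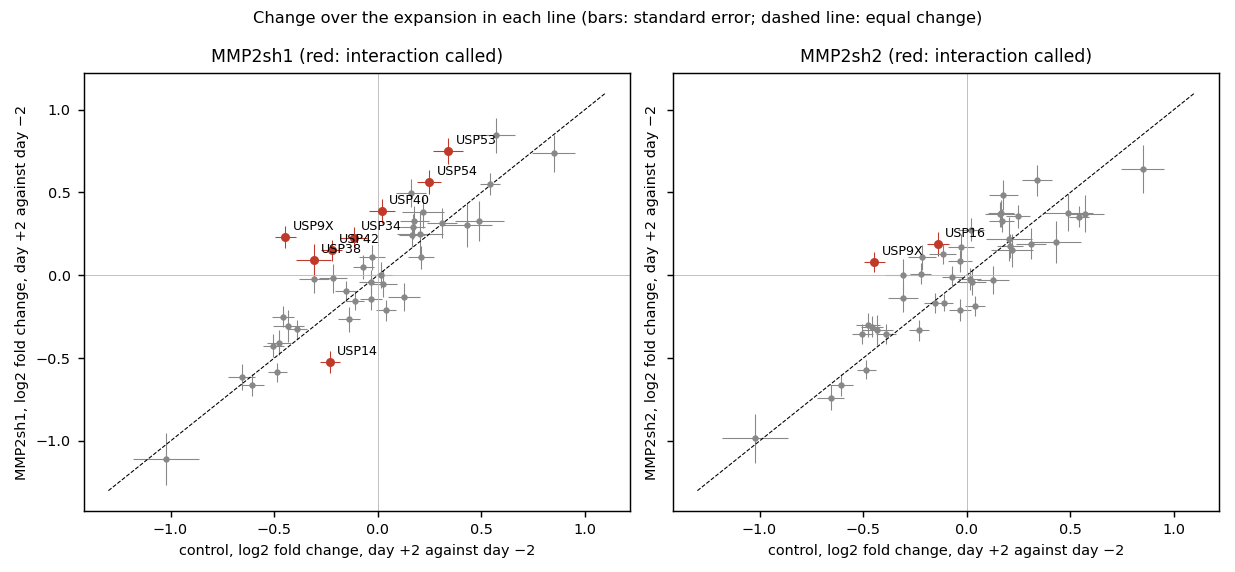
Log2 fold change from day −2 to day +2 in the control (horizontal axis) and in MMP2sh1 or MMP2sh2 (vertical axis) for 43 USP mRNAs, without USP2 and USP6, whose errors were wide, with standard errors as bars. Members with a called interaction are red and named: 8 for MMP2sh1, with USP9X farthest from the dashed line of equal change and USP14 below it, and 2 for MMP2sh2.

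When the shRNA lines were compared with the control of the same day, 23 of 45 members (51.1%) were called in at least 1 of the 6 comparisons, against 41.9% of the 17496 genes tested in all of them. At day −2, MMP2sh1 had 0 members higher, where 5.42% of all genes were, and 6 lower, where 6.14% of all genes were. MMP2sh2 had 2 higher, where 4.71% of all genes were, and 9 lower, where 6.33% of all genes were. The median log2 fold change over the 45 members was −0.08 in MMP2sh1 and −0.09 in MMP2sh2, against 0.00 over all genes in both. At day 0, MMP2sh1 had 1 member higher, where 8.26% of all genes were, and 6 lower, where 8.58% of all genes were. In MMP2sh2 at day 0, 2 members were higher, where 7.07% of all genes were, and 0 lower, where 5.81% of all genes were. At day +2, MMP2sh1 had 3 members higher, where 7.68% of all genes were, and 3 lower, where 7.11% of all genes were. MMP2sh2 then had 0 higher, where 2.89% of all genes were, and 1 lower, where 3.43% of all genes were. Of the 3 counts of 0, all from edgeR, that of MMP2sh1 at day −2 stood beside 3 members higher at an unadjusted p under 0.05 and 1 called higher by DESeq2, that of MMP2sh2 at day 0 beside 9 lower and 2 called lower by DESeq2, and that of MMP2sh2 at day +2 beside 1 higher and 0 called by DESeq2.

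**Figure D5:**
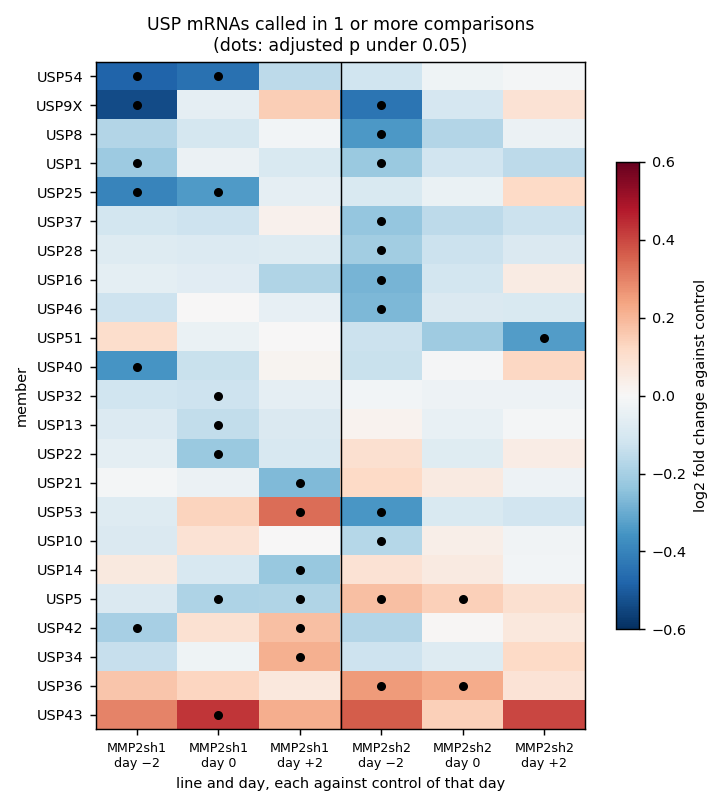
Log2 fold change of the 23 USP mRNAs called in at least 1 comparison of an shRNA line with the control of the same day, as colour (blue, lower; red, higher), with dots on called values. USP9X and USP1 carry dots in both lines at day −2, USP54 and USP25 carry dots in MMP2sh1 at days −2 and 0, and USP5 carries dots of opposite sign in the 2 lines.

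USP5, on chromosome 12 between 6961312 and 6975796 (plus strand), was the member called most often, in 4 of the 6 comparisons, and in opposite directions in the 2 lines. At day −2 it was at 311, 318 and 319.8 CPM in the control, 303, 289.7 and 301 in MMP2sh1 and 347, 350.5 and 381 in MMP2sh2. At day 0 the values were 266, 266 and 291, 233, 241 and 252 and 296, 321 and 303 CPM, and at day +2 they were 219.7, 229 and 226.2, 203, 202 and 191 and 247, 244 and 232 CPM. At each day all MMP2sh1 libraries lay below the control and all MMP2sh2 libraries above it. The log2 fold change against the control was −0.09 (edgeR adjusted p = 0.31) at day −2, −0.19 (edgeR adjusted p = 0.0017) at day 0 and −0.18 (edgeR adjusted p = 0.016) at day +2 in MMP2sh1. In MMP2sh2 it was 0.18 (edgeR adjusted p = 0.024), 0.14 (edgeR adjusted p = 0.022) and 0.10 (edgeR adjusted p = 0.33). The call in MMP2sh1 at day 0 was kept with each library left out. That at day +2 was lost without control library 2 of day +2 (0.093), control library 3 of day +2 (0.064) or MMP2sh1 library 3 of day +2 (0.079), and those in MMP2sh2 were lost without control library 1 of day −2 (0.13), control library 2 of day −2 (0.079) or control library 3 of day −2 (0.05) at day −2 and without control library 1 of day 0 (0.13), control library 2 of day 0 (0.08) or MMP2sh2 library 2 of day 0 (0.15) at day 0.

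The direct comparison of the 2 shRNA lines does not involve the control. USP5 was lower in MMP2sh1 than in MMP2sh2, with log2 fold changes of −0.27 (standard error 0.06, edgeR adjusted p = 0.0028) at day −2, −0.33 (standard error 0.04, edgeR adjusted p = 9.1e-08) at day 0 and −0.28 (standard error 0.05, edgeR adjusted p = 0.0012) at day +2, and these 3 calls were kept with each library left out in turn. The decline over the expansion was close in size in the 3 lines, and the interaction of line and day was −0.09 (edgeR adjusted p = 0.5) for MMP2sh1 and −0.09 (edgeR adjusted p = 0.57) for MMP2sh2. Over all members, this comparison called 3 of 45 at day −2, where 10.7% of all genes were called, 7 at day 0, where 18.5% of all genes were called, and 3 at day +2, where 7.86% of all genes were called. The number was 5 at day −2 without MMP2sh1 library 3 and 4 at day 0 without MMP2sh1 library 2.

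USP54 and USP25 were lower in MMP2sh1 than in both other lines at days −2 and 0. USP54, a member for which little is known, lies on chromosome 10 between 75257296 and 75385875 (minus strand). At day −2 it was at 55.5, 52.6 and 54.6 CPM in the control, 37.9, 37.8 and 40.8 in MMP2sh1 and 51.1, 51.2 and 47.5 in MMP2sh2, and at day 0 at 52.5, 56.4 and 53.5, 41.3, 36.1 and 41.8 and 53.6, 52.0 and 55.3 CPM. The MMP2sh1 libraries did not overlap with the others at either day. Against the control, MMP2sh1 differed by −0.48 (standard error 0.07, edgeR adjusted p = 2.2e-05) at day −2 and −0.45 (standard error 0.06, edgeR adjusted p = 3.4e-06) at day 0, and against MMP2sh2 by −0.37 (edgeR adjusted p = 0.0018) and −0.42 (edgeR adjusted p = 8.3e-06). These 4 calls were kept with each library left out. At day +2 the MMP2sh1 level was 58.2, 55.4 and 59.2 CPM against 66.8, 61.9 and 63.8 in the control, with −0.16 (edgeR adjusted p = 0.094). The exons of USP54 overlap PPP3CB-AS1 and an unnamed gene on the opposite strand. Reads over 2 genes of the authors' annotation were set aside as ambiguous by the counting, which did not use strand.

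USP25, an enzyme with roles in inflammatory signaling, lies on chromosome 21 between 17102301 and 17252383 (plus strand) and its exons overlap no other annotated gene. It was at 40.3, 39.1 and 47.1 CPM in the control, 29.1, 35.4 and 31.3 in MMP2sh1 and 39.5, 41.6 and 37.8 in MMP2sh2 at day −2, and at 49.4, 49.0 and 48.5, 36.7, 40.5 and 39.4 and 46.6, 48.3 and 49.6 CPM at day 0. Against the control, MMP2sh1 differed by −0.39 (standard error 0.08, edgeR adjusted p = 0.0025) at day −2 and −0.34 (standard error 0.06, edgeR adjusted p = 0.00013) at day 0, both kept with each library left out. The value at day +2 was −0.05 (edgeR adjusted p = 0.71). Against MMP2sh2 the difference was −0.31 (edgeR adjusted p = 0.018) at day −2 and −0.30 (edgeR adjusted p = 0.00073) at day 0. The former was lost without MMP2sh1 library 1 of day −2 (0.11), MMP2sh2 library 1 of day −2 (0.052) or MMP2sh2 library 2 of day −2 (0.1). MMP2sh2 itself differed from the control by −0.09 (edgeR adjusted p = 0.52) at day −2 and −0.04 (edgeR adjusted p = 0.76) at day 0.

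In MMP2sh2, USP36 was higher than in the control at days −2 and 0. It was at 94.4, 94.9 and 88.3 CPM in the control and 103, 112 and 117 in MMP2sh2 at day −2, and at 75.9, 75.0 and 78.3 and 93.1, 94.6 and 82.8 at day 0, without overlap at either day. The log2 fold changes were 0.26 (standard error 0.06, edgeR adjusted p = 0.0064) and 0.22 (standard error 0.05, edgeR adjusted p = 0.0043), kept with each library left out. In MMP2sh1 the same values were 0.17 (edgeR adjusted p = 0.076) and 0.13 (edgeR adjusted p = 0.084), and the 2 shRNA lines differed by −0.09 (edgeR adjusted p = 0.45) and −0.09 (edgeR adjusted p = 0.27).

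The other calls at day −2 were mostly lower levels in the shRNA lines. Besides USP9X, USP1 was called lower in both lines, at −0.22 (edgeR adjusted p = 0.022) in MMP2sh1 and −0.22 (edgeR adjusted p = 0.015) in MMP2sh2, with shared control libraries of 142, 139 and 149 CPM against 135, 122 and 112 and 130.1, 124 and 115 CPM. The call was lost in MMP2sh1 without control library 1 of day −2 (0.068), control library 3 of day −2 (0.098), MMP2sh1 library 2 of day −2 (0.083) or MMP2sh1 library 3 of day −2 (0.14), and in MMP2sh2 without control library 1 of day −2 (0.07) or control library 3 of day −2 (0.082). USP40 was called lower in MMP2sh1 (−0.36, edgeR adjusted p = 0.0012), as was USP42 (−0.20, edgeR adjusted p = 0.024). In MMP2sh2 the lower calls were also USP53, USP8, USP16, USP46, USP37, USP28 and USP10, between −0.35 and −0.17. The call of USP10 was lost in 5 of 6 fits with 1 library left out (edgeR adjusted p up to 0.16) and in 1 of the 6 other fits. Those of USP16 (0.062) and USP46 (0.06) were lost without control library 1 of day −2, and that of USP53 (0.085) without control library 3 of day −2. The count of called members was 10 in MMP2sh1 without its library 1, against 6 with all libraries, and 4, 7 and 5 in MMP2sh2 without control libraries 1, 2 and 3, against 11. USP28 and USP37 were not among the members called in MMP2sh2 without control library 1, 2 or 3. Over all genes at day −2, the median log2 fold change was 0.03 in MMP2sh1 and 0.04 in MMP2sh2 for genes under 4 kb of exon, and −0.05 in both for genes of 8 kb or more. Of 6 proliferation genes at this day, MKI67 was called lower in MMP2sh1 and MKI67 and TOP2A in MMP2sh2, while 3 of the 6 lay above 0 and 3 below in each line, with medians of 0.00 and 0.02. The part of gene length in the members' values was not tested.

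At day 0, MMP2sh1 also showed lower USP22, at 385, 367 and 384 CPM against 434, 437 and 449.9 in the control and 415, 430.2 and 424 in MMP2sh2. The MMP2sh1 libraries lay below all others, and the log2 fold change was −0.22 (standard error 0.04, edgeR adjusted p = 4.2e-05) against the control and −0.15 (edgeR adjusted p = 0.0022) against MMP2sh2, both kept with each library left out. USP13 (−0.15) and USP32 (−0.13) were also called lower and USP43 higher (0.43, edgeR adjusted p = 0.044). The call of USP43 was lost without control library 2 of day 0 (0.21), control library 3 of day 0 (0.062), MMP2sh1 library 2 of day 0 (0.093) or MMP2sh1 library 3 of day 0 (0.2). With either control library 2 or MMP2sh1 library 2 left out, 4 members were called in MMP2sh1 at day 0, against 7 with all libraries. USP13, USP32 and USP43 were not among these 4. In MMP2sh2 at day 0 it was 1, against 2, without control library 1, control library 2 or MMP2sh2 library 2.

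At day +2, USP53 was higher in MMP2sh1 and USP14 lower. USP53 was at 45.8, 43.1 and 41.0 CPM in the control, 49.9, 58.8 and 55.6 in MMP2sh1 and 41.7, 33.8 and 44.5 in MMP2sh2, so that MMP2sh1 lay above all other libraries. The difference was 0.34 (standard error 0.07, edgeR adjusted p = 0.0012) against the control and 0.45 (standard error 0.09, edgeR adjusted p = 0.0012) against MMP2sh2, both kept with each library left out. USP14 was at 113, 113 and 113 CPM in the control and 88.6, 95.7 and 105 in MMP2sh1, a difference of −0.23 (standard error 0.06, edgeR adjusted p = 0.011), which was lost without MMP2sh1 library 1 of day +2 (0.052). Its exons overlap THOC1 on the opposite strand. USP34 and USP42 were called higher and USP21 lower in MMP2sh1. For USP34 (0.21, edgeR adjusted p = 0.029) the call was lost with the replicate block (0.085) and without control library 2 of day +2 (0.25), control library 3 of day +2 (0.16), MMP2sh1 library 2 of day +2 (0.1) or MMP2sh1 library 3 of day +2 (0.13). At the same day USP51 was called lower in MMP2sh2 (−0.34, edgeR adjusted p = 0.041), and the call was lost without control library 1 of day +2 (0.17), control library 2 of day +2 (0.15), MMP2sh2 library 1 of day +2 (0.083) or MMP2sh2 library 2 of day +2 (0.28). USP42 had calls of opposite sign in MMP2sh1, −0.20 at day −2 and 0.18 at day +2. Each was lost when single libraries were left out, with adjusted p values up to 0.11 (without control library 1 of day −2) and 0.2 (without MMP2sh1 library 2 of day +2). The number of called members at day +2 in MMP2sh1 was 3 and 2 without control libraries 2 and 3 and 10 without MMP2sh1 library 1, against 6. With the replicate block it was 2, with USP14 among them, so that USP34 was not alone in losing its call in that fit. In MMP2sh2 it was 0 without control library 2, MMP2sh2 library 1 or MMP2sh2 library 2, and 2 without MMP2sh2 library 3, against 1.

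Genes of ubiquitin removal outside the family were described by their counts. Of 32 deubiquitinases outside the USP family, 31 were tested, and in the control expansion 7 rose and 12 fell (22.6% and 38.7%, against 28.1% and 28.6% of all genes), with a median log2 fold change of −0.05, against 0.03 over all genes. Against the control, 3 of the 31 were called at day −2 in MMP2sh1 and 4 in MMP2sh2, 7 and 1 at day 0, and 6 and 1 at day +2. Over all genes and in the same order, 11.6%, 11.0%, 16.8%, 12.9%, 14.8% and 6.32% were called in either direction, and of the 31 genes 9.68%, 12.9%, 22.6%, 3.23%, 19.4% and 3.23%. Among 13 genes of ubiquitin, E1 enzymes and USP partners, 3 rose and 4 fell over the control expansion (23.1% and 30.8%). The proliferation genes MKI67, CCNB1, MCM2 and E2F1 fell and TOP2A rose in the same comparison, and PCNA was not called. Among the deubiquitinases, YOD1 and OTUB2 were picked after their values were seen, since both were called at all 3 days in MMP2sh1. YOD1 was at 0.25, 0.44 and 0.38 against the control at days −2, 0 and +2, and OTUB2 at −0.61, −0.51 and −0.45. By edgeR, none of the 45 tested USP members was called at all 3 days in MMP2sh1 against the control, where 3.11% of 17496 genes were. None was in MMP2sh2 either, for which the share of all genes was not counted.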

How the data were processed

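Poly(A) RNA of 27 U2OS libraries (3 lines, 3 days, 3 libraries each) was sequenced in paired ends. Per the methods and the submitters' processing notes, the authors used Trim Galore 0.6.0 for trimming, STAR 2.7.3a for alignment to hg19, Samtools for filtering alignments and HTSeq 2.0.0 for counting exon reads, without strand. The deposited values are raw read counts per gene symbol; HTSeq's summary lines (16.8% to 19.1% of the total, of which ambiguous reads were 6.95% to 7.83%) stayed out of library sizes and tests, and since HTSeq's union mode sets aside reads over 2 annotated genes, levels of overlapping and antisense genes remain uncertain. Total counts were 33580129 to 59374327 per library, and their number limits the precision of low members.

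Groups were taken from the sample labels. Each comparison was fitted on its own libraries (6, or 12 for an interaction) with edgeR 4.0.16 in R 4.3.3: TMM scaling, quasi-likelihood testing after filterByExpr (at least 10 counts, total of at least 15), and p-values adjusted after Benjamini and Hochberg over all genes tested, with those under 0.05 called. The standard error is the size of the log2 fold change divided by the square root of F. Levels are CPM with TMM factors over all 27 libraries. Exon lengths and GRCh37 positions are from GENCODE v44lift37; promoters are RefSeq windows on GRCh38.p14. The fits were tested on simulated data. The labels number the 3 libraries of a group as replicates, and the text of the study calls them biological replicates. The p-values set a difference between groups against the spread between these libraries, which come from the same stable line. Libraries of a group were no duplicates of one library: the chi-square of their counts was 4.58 to 22.2 per degree of freedom over 27 pairs. The highest values, 17.5 and 22.2, were those of pairs with MMP2sh1 library 1 of day −2. The pair of libraries 2 and 3 in that group had 7.45.

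The members and lists were chosen with earlier results of these data known. The genes named were the 7 largest called rises and falls of the control expansion, members called with one sign at 2 or more days in an shRNA line, members with a called interaction, the 5 highest and 5 lowest levels per kb and the members tested nowhere; others were named to complete a count or a role group after their values were seen. USP41 fits the form of the symbols but is annotated as a pseudogene and was left out. Alternatives were median-of-ratios scaling, DESeq2 1.42.0, no filter, at least 10 counts in every library, a replicate block, one fit of all 27 libraries and each library left out. One gene of the list of ubiquitin genes and USP partners is not reported here. The ChIP-Seq data of the study were not used here.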

Additional observations from a re-analysis of the deposited data

Results flagged for a closer look

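The interaction of line and day, a test of whether the change from day −2 to day +2 differs between an shRNA line and the control, was called for the following members, with a positive value where the shRNA line changed more upward. For MMP2sh1 the values were 0.69 for USP9X, 0.42 for USP53, 0.41 for USP38, 0.38 for USP42, 0.38 for USP40, 0.35 for USP34, 0.32 for USP54 and −0.29 for USP14. For MMP2sh2 they were 0.52 for USP9X and 0.33 for USP16. Both lines were set against the same control libraries.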

How the results depend on the processing

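No called log2 fold change of the 152 examined for single members changed sign under an alternative. These 152 are calls of the members chosen by the naming rules above, and calls of the other members were not examined one by one. Of these 152 calls, DESeq2 lost 0, median-of-ratios scaling 1 (the interaction of USP38 in MMP2sh1), the filter of 10 counts in every library 3, no filter 9 and one fit of all 27 libraries 9. Over all 45 tested members, DESeq2 called 11 higher in the control from day −2 to day +2, against 12 by edgeR. Deviations from the group means had correlations of −0.08 to 0.09 over 108 pairs of libraries with the same replicate number. Over 216 pairs with different numbers they were −0.08 to 0.11. These correlations run over all genes kept and cannot exclude a pairing that touches only some genes or days. The fit with a replicate block lost 6 of the 152 calls. Over the fits with 1 library left out, calls were lost 151 times, where 1 call can be lost in several fits. Members with few reads, USP2 and USP6, are the ones limited most by depth.

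Counts of called members moved by more than 1.5 times as follows. In MMP2sh1 against control they went from 7 to 4 at day 0 in one fit of all 27 libraries and from 6 to 2 at day +2 with the replicate block. In MMP2sh2 against control they went from 2 to 4 at day 0 with DESeq2 and with 10 counts in every library, and from 1 to 0 at day +2 with the replicate block and in one fit of all 27 libraries. Between MMP2sh1 and MMP2sh2 at day −2 they went from 3 to 7 with DESeq2, with the replicate block and in one fit of all 27 libraries, and to 6 with 10 counts in every library. At day +2 they went from 3 to 8 with DESeq2 and with the replicate block, and to 5 with no filter, with 10 counts in every library and in one fit of all 27 libraries. The interaction of MMP2sh2 went from 2 to 5 with DESeq2 and to 4 with 10 counts in every library. The cause of these moves was not tested.

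With single libraries left out, the counts in MMP2sh1 against control ranged, for days −2, 0 and +2, over 4 to 10, 4 to 6 and 2 to 10, and in MMP2sh2 over 4 to 10, 1 to 3 and 0 to 2. Between the shRNA lines they ranged from 2 to 5, 4 to 7 and 2 to 4, and for the interactions from 2 to 9 (MMP2sh1) and 1 to 3 (MMP2sh2). Those over the expansion ranged from 25 to 29 in the control, 25 to 32 in MMP2sh1 and 24 to 27 in MMP2sh2, and for the control steps from 18 to 23 and 24 to 28.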
